A study of Mus musculus with 2 samples.

Results

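Basal interfollicular keratinocytes, the innermost cells of the epidermis between the hair follicles, were taken from 2 droplet-based 3′ single-cell RNA libraries of dorsal mouse skin. The IMQ library came from skin given imiquimod topically every day for 5 days, and the Ctrl library came from control skin. Both used C57BL/6 wild-type mice, female and 2 months old per the series' design text and labels, and both were digested with collagenase D and DNase1 and cleared of dead cells. The number of mice behind each library and the treatment of the control skin are not given in the sources used here. A cell was a member when at least 0.5% of its unique molecular identifiers (UMIs, each standing for 1 captured transcript) came from Krt5 and Krt14. It also had to have under 0.2% of UMIs from Krt1 and Krt10, fewer than 3 Krt79 UMIs, at most 1 UMI of Lgr5, Lhx2 and Sox9 together, no Ptprc UMI and under 1% of UMIs from Col1a1 and Col1a2. Of the 18796 cells with at least 200 genes and at most 10% mitochondrial UMIs, 380 were members, 104 of 8499 in IMQ skin and 276 of 10297 in Ctrl skin. The cells were thus chosen by the measured levels of these genes, whose values are given as a description only.

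Basal keratinocytes sit on the basement membrane, to which integrins and the hemidesmosome, a rivet of collagen XVII, integrin α6β4 and plakins, hold them. They are the dividing layer of the epidermis, and cells that leave it switch from Krt5 and Krt14 to Krt1 and Krt10 and then build the cornified barrier. Imiquimod is a ligand of Toll-like receptor 7, and its cream gives mouse skin a scaly, thickened inflammation used as a model of psoriasis. In psoriatic skin, keratinocytes are known to make wound-type keratins, antimicrobial proteins and cytokines in response to interleukin-17 and related signals.

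Members made up 1.22% of the cells in IMQ skin (Clopper-Pearson 95% interval 1.001% to 1.48%) and 2.68% in Ctrl skin (2.38% to 3.01%). With 1 library per group there is no replicate spread and no test, and every interval given covers counting error only. Of the cells that met all the other limits, 803 of 907 in IMQ skin and 151 of 427 in Ctrl skin had 2 or more UMIs of Lgr5, Lhx2 and Sox9 and were left out. Just inside that limit lay 40 IMQ and 69 Ctrl cells with 1 such UMI, and just outside it 38 IMQ and 30 Ctrl cells with 2. Members held a median of 24667 UMIs in IMQ skin and 15027 in Ctrl skin, and a median of 4278 and 3604 genes. A fixed limit of 1 UMI is stricter in deeper cells, so the shares also depend on depth.

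The defining markers were present. Krt5 was at 6647 CPM (a gene's UMIs as parts of all UMIs of the summed cells, on the usual scale for sequencing counts) in IMQ members and 7804 CPM in Ctrl members, and Krt14 at 18642 and 15244 CPM. Outside the rule, Trp63, the master transcription factor of stratified epithelia, had a UMI in 82 of 104 IMQ and 256 of 276 Ctrl cells, and Col17a1 in 83 and 271. The members were not uniform. The 23 IMQ members with fewer than 5000 UMIs had 1572 CPM of Krt15, 661 CPM of Postn and 91.1 CPM of Tbx1, against 238, 66.9 and 8.42 CPM in the 81 deeper IMQ members, and all 3 are on the list of outer root sheath and follicle stem cell markers. Fibroblast markers moved with them, at 4306 CPM in sum in the shallow and 391 CPM in the deeper IMQ members, and IMQ fibroblasts had 1174 CPM of Postn. The 21 IMQ members without a Col17a1 UMI included 1 cell that held 1107 of the 2212 Krt6b UMIs and 663 of the 857 Sprr1b UMIs of the IMQ members. Values without the shallow cells, without cells at 0 Col17a1 UMIs and without the highest cell of a gene are given for results that they move far, though not for every gene.

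The members gave 2657928 UMIs in IMQ skin and 5667570 in Ctrl skin. Of the barcodes, 23 were listed in both libraries, none of them a member. Free RNA, estimated from markers of other cell types, came to 1.09% of member UMIs in IMQ skin and 12.1% in Ctrl skin. Summed fibroblast markers, which the collagen limit holds down in part, stood at 455 CPM in IMQ members and 1613 CPM in Ctrl members. Of the neutrophil marker list, Ly6g and Mmp8 were at 0 CPM in both libraries. Csf3r and Retnlg were at 0.376 CPM in IMQ and 0 CPM in Ctrl members, and Cxcr2 was at 2.26 and 1.06 CPM. The same list also holds Il1b and, going the other way, S100a8 and S100a9, at 6782 and 8413 CPM in IMQ members. The low values also depend on the rule, which allowed no Ptprc UMI. In Ctrl skin, 1 member held 161 of the 171 Il1b UMIs and another 211 of the 261 Ccl20 UMIs. The part of free RNA in the differences below was not tested beyond the values given.

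Of 10485 genes with at least 20 UMIs over both libraries, 780 (7.44%) were at least 2-fold higher in IMQ members and 1817 (17.3%) at least 2-fold lower, each with a 95% counting interval that left out equality. Higher and lower are used in this sense throughout. The ratio of IMQ over Ctrl had a median of -0.21 on the log2 scale over all measured genes. The 50 most abundant genes took a similar part of the UMIs in both libraries, 27.7% in IMQ and 28.2% in Ctrl members. With a size factor that brings this median close to 0, the split was 1182 higher and 1292 lower, so genes just past the limit on the lower side were neither. For that reason the medians of gene lists are given relative to all measured genes. Where a gene had no UMI in Ctrl cells, its fold is a lower bound set by 3 counts in the library, and it enters a list's median at that bound.

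**Figure D1:**
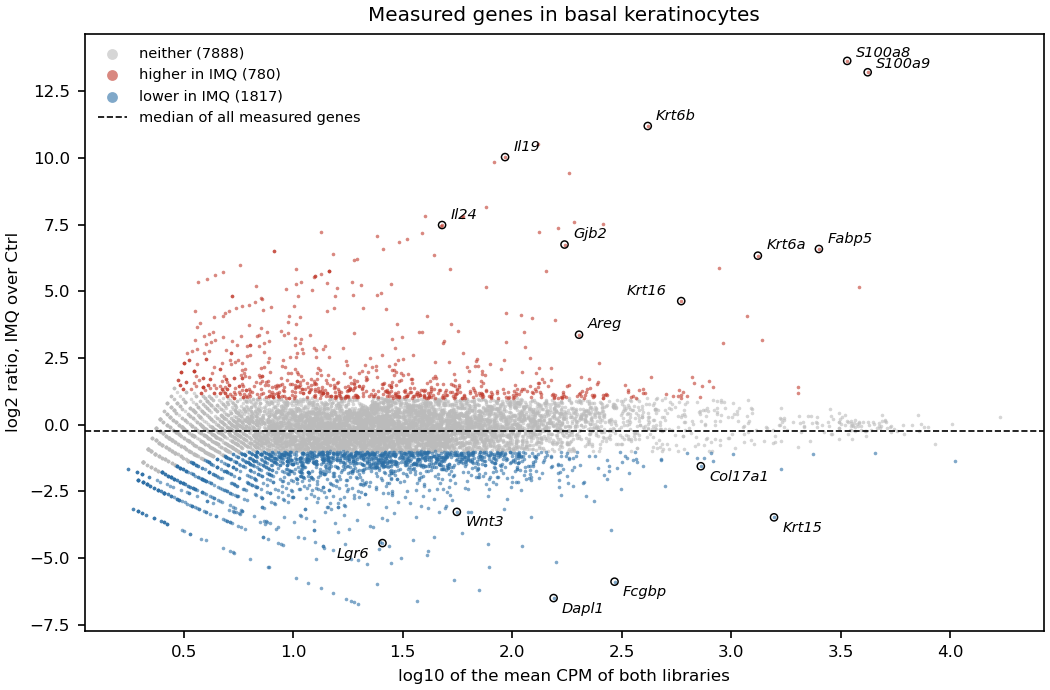
Each point is 1 of 10485 measured genes in basal keratinocytes, with the log10 of the mean CPM of both libraries across and the log2 ratio of IMQ over Ctrl up the page, red for 780 higher and blue for 1817 lower genes. The dashed line marks the median of -0.21, and S100a8, S100a9 and Krt6b lie at the top and Dapl1 and Fcgbp at the bottom.

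The wound keratins separated the libraries. Krt6a, Krt6b, Krt16 and Krt17 are intermediate filament proteins that skin makes after wounding and in hyperproliferation. All 4 were higher in IMQ members, and Krt80, a keratin of differentiating epithelia, was lower; these are the 5 measured members of a list of 10. The list's median log2 ratio was 4.85 relative to all measured genes. Krt6a (chr15:101689910-101694307, GRCm38) stood at 2618 CPM in IMQ members (interval 2557 to 2680.5) and 32.3 CPM in Ctrl members (27.8 to 37.3), 81.1-fold (interval 70.0 to 94.4). It had a UMI in 83 of 104 IMQ and 31 of 276 Ctrl cells, and the median cell was at 894 CPM in IMQ and 0 CPM in Ctrl skin. Thinned to 3000 UMIs a cell, 78.6% of IMQ and 4.46% of Ctrl members kept a UMI, against 2.33% and 0.0854% of fibroblasts, which should lack the gene. The transcript was thus found in most IMQ members and in few Ctrl members.

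Krt17, also a keratin of the follicle, stood at 2236 CPM in IMQ and 134 CPM in Ctrl members, 16.7-fold (interval 15.5 to 18.1), with 87 of 104 and 133 of 276 cells positive. In Ctrl members its estimated free RNA level was 73.5 CPM, a large part of the measured value. Krt16, the partner of Krt6, stood at 1138 CPM in IMQ and 45.7 CPM in Ctrl members, 24.9-fold (interval 21.9 to 28.4), but 13.2-fold without the members at 0 Col17a1 UMIs. Krt6b is nearly identical to Krt6a, so reads may be shared or lost between them. It had 2212 UMIs in IMQ and 2 in Ctrl members, 2358-fold (interval 652 to 19486), 797-fold without the highest cell of each library and 1001-fold without the members at 0 Col17a1 UMIs. A UMI was found in 31 of 104 IMQ cells, and 1 of them held 1107 of the UMIs. Krt80 had 0 UMIs in IMQ and 35 in Ctrl members.

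**Figure D2:**
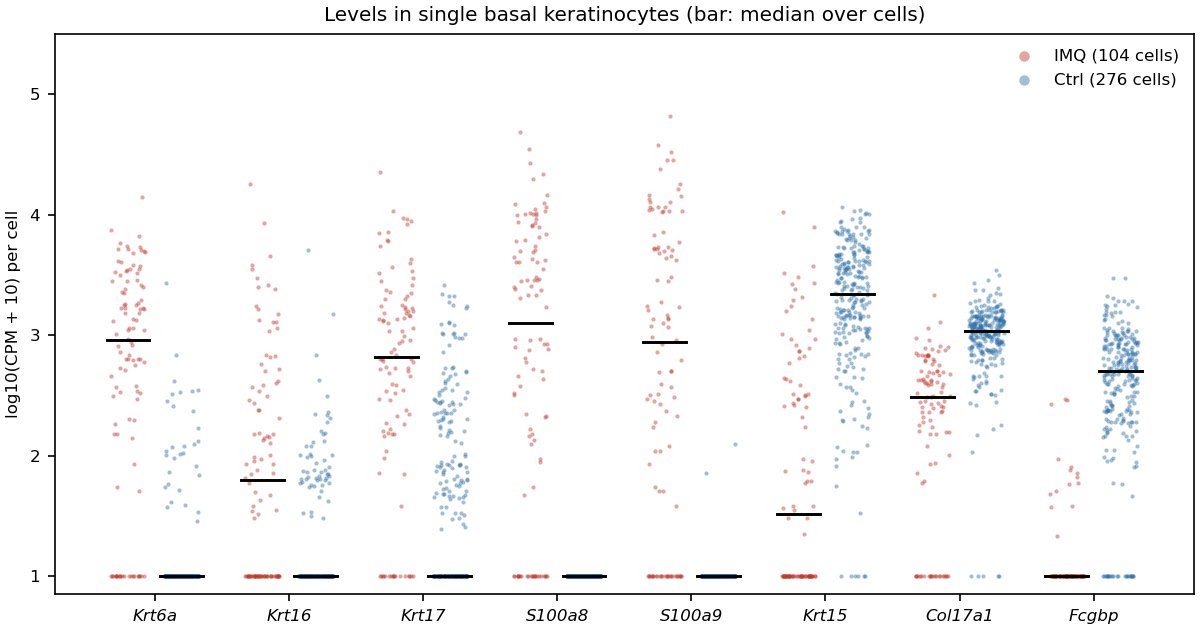
Each point is 1 cell, IMQ (104) left of Ctrl (276), with log10(CPM + 10) of 8 genes up the page and a bar at the median over cells. Most IMQ cells lie above the Ctrl median of 0 for Krt6a, S100a8 and S100a9, while for Krt15 and Fcgbp most Ctrl cells lie above the IMQ median.

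S100a8 and S100a9 are close neighbours on chromosome 3 and encode the 2 subunits of calprotectin, which binds zinc and manganese and is secreted as an alarm signal. Both were abundant in IMQ members and at or near 0 in Ctrl members. S100a8 had 18027 UMIs in IMQ members, 6782 CPM (6684 to 6882), and 0 UMIs in Ctrl members, at least 12813-fold. S100a9 stood at 8413 CPM in IMQ and 0.882 CPM in Ctrl members, 9536-fold (interval 4086 to 29371), with 5 UMIs in all of the Ctrl members. The 2 transcripts were found in 81 and 78 of 104 IMQ cells and in 0 and 2 of 276 Ctrl cells, and 0 of 276 allows a share of cells with a UMI of up to 1.33% (upper Clopper-Pearson bound). Levels differed widely between IMQ cells: S100a8 had a median of 1309 CPM, quartiles of 82.1 and 6038 CPM and a maximum of 48548 CPM. After thinning to 3000 UMIs 73.8% of IMQ members kept an S100a8 UMI, against 4.35% of IMQ fibroblasts. The estimated free RNA level was 18.7 CPM for S100a8 and 23.6 CPM for S100a9 in IMQ members, and IMQ fibroblasts had 27.4 CPM of each.

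The 250 bases before the RefSeq start of S100a9 are printed because it had the highest level of the genes that were at or near 0 in Ctrl members and because a motif was found there. Capitals here and in the sequences below mark matches to 4 motifs searched on both strands: TGANTCA for AP-1, GGGA and TTCC held 2 bases apart for NF-kB, TTGCNNAA for C/EBP and TTCNNNGAA for STAT. Of 32851 RefSeq windows of the same length, 6.75% held the AP-1, 1.21% the NF-kB, 9.56% the C/EBP and 7.02% the STAT letters. The window is chr3:90695722-90695971 on GRCm38.p6, read along the minus strand, and lies outside the gene as annotated, in its promoter. The genes shown in this way were picked after their values were seen, and a match is a description of letters only.
S100a9: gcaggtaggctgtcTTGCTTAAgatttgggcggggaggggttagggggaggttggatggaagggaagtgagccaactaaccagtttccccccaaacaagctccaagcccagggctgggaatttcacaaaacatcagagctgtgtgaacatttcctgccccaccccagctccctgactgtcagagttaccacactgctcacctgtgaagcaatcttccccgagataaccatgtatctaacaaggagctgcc
The C/EBP letters lay from 236 to 229 bases before the start. The window of the same length before the RefSeq start of S100a8 held none of the 4 motifs. Unlike that of S100a9, it overlaps the start of the gene as annotated, so the 2 windows are not alike.

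Antimicrobial proteins and their relatives were higher as a group: 12 of 15 measured members of a list of 28 were higher and none lower. This compares with 7.44% and 17.3% of all measured genes, and the list's median log2 ratio was 4.72 relative to them. Lcn2, which starves bacteria of iron by binding siderophores, stood at 261 CPM in IMQ and 0.176 CPM in Ctrl members, with 55 of 104 and 1 of 276 cells positive (1482-fold, or 451-fold without the highest cell of each library). IMQ fibroblasts had 944 CPM of it, more than the basal members, and after thinning 38.1% of IMQ members and 42.8% of IMQ fibroblasts kept a UMI. Slpi, an inhibitor of neutrophil proteases, had 313 UMIs in IMQ and 0 in Ctrl members, 182 of them in 1 cell. Defb1, a β-defensin, stood at 102 and 22.8 CPM, 4.48-fold (interval 3.62 to 5.57). The stefins, inhibitors of cysteine proteases encoded by near-identical neighbours whose reads may be shared, followed: Stfa1 stood at 1734 CPM in IMQ and 29.6 CPM in Ctrl members, Stfa3 at 2502 and 277 CPM, and Gm5416, named Csta3 in RefSeq, at 165 and 0.176 CPM, 226 of its 438 IMQ UMIs lying in 1 cell (934-fold, or 150.1-fold without the highest cell of each library). Stfa3 was 9.04-fold higher and had a UMI in 49.6% of Ctrl cells, above the 4.44 CPM that free RNA was estimated to give there. Saa3 was above the fold limit with 58 IMQ UMIs and 0 Ctrl UMIs, but its 21.8 CPM lay under the free RNA estimate of 41.1 CPM. Rnase4, Ang and Cstb were neither higher nor lower. The gene 2610528A11Rik, which RefSeq also lists as Gpr15l, a ligand of the receptor GPR15, stood at 515 CPM in IMQ members in 79 of 104 cells and at 2.82 CPM in Ctrl members, 183-fold (interval 112 to 320.3). The long noncoding RNA U90926 had 206 UMIs in IMQ members, 164 of them in 1 cell, and 0 in Ctrl members.

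Genes of the cornified barrier were higher in IMQ members even though the rule bars Krt1 and Krt10. On the differentiation list 18 of 29 measured members were higher and 4 lower, against 7.44% and 17.3% of all measured genes. The list's median was 1.59 relative to all measured genes. Sprr2d, Sprr2h and Sprr1b encode small proline-rich proteins that are cross-linked into the cornified envelope. Sprr2d had 967 UMIs in IMQ and 0 in Ctrl members, at least 687-fold, in 15 of 104 cells, and at least 391-fold without its highest cell or 67.0-fold without the 5% of members with most UMIs. Sprr2h had 404 and 0 UMIs, at least 287-fold, in 22 cells (at least 141-fold without its highest cell), and Sprr2i 317 and 0 UMIs, 259 of them in 1 cell. The Sprr2 genes are close copies of each other, so their single values are uncertain. Krtdap, made by cells that start to differentiate, stood at 1638 CPM in IMQ and 194 CPM in Ctrl members, 8.46-fold (interval 7.92 to 9.05), although the Ctrl value lay below the free RNA estimate of 281 CPM. Cnfn stood at 264 and 1.76 CPM, with 444 of 703 IMQ UMIs in 1 cell, and Tgm1, the enzyme that cross-links the envelope, at 30.9 and 0.882 CPM. The desmosomal cadherin gene Dsg1a went the other way, with 6.77 CPM in IMQ and 149 CPM in Ctrl members, as did Serpinb2, Lor and Krt77, although Lor in Ctrl members, at 9.88 CPM, lay below its free RNA estimate of 42.9 CPM. With free RNA subtracted, 19 of 27 list members were higher and 2 lower. Without the 5% of members with most UMIs, 11 of 26 measured list members were higher, 5 lower, and the median was 0.66 relative to all measured genes. Without the members at 0 Col17a1 UMIs, 14 of 28 were higher and 5 lower.

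The windows before Sprr2d (chr3:92338890-92339139) and Sprr2h (chr3:92385435-92385684), both on the plus strand, are shown since these copies were absent from Ctrl members and each held the AP-1 letters.
Sprr2d: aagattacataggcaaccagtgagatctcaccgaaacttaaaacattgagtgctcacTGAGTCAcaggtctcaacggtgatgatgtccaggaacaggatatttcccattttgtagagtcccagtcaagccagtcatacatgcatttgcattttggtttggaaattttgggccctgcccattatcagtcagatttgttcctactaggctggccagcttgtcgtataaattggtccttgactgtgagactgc
Sprr2h: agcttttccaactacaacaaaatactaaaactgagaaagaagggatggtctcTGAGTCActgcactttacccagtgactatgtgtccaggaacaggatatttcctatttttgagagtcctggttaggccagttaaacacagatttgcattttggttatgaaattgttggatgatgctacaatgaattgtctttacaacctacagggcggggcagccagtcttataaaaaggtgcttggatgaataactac
The match lay from 193 to 187 bases before the start of Sprr2d and from 198 to 192 bases before that of Sprr2h.

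Fabp5, a fatty acid carrier of the epidermis that is abundant in psoriatic skin, stood at 4985 CPM in IMQ and 51.7 CPM in Ctrl members, 96.4-fold (interval 85.9 to 109). The Ctrl value lay at its free RNA estimate of 54.7 CPM, and 2827 of 13250 IMQ UMIs came from 1 cell. It had a UMI in 87 of 104 IMQ and 109 of 276 Ctrl cells. On the lipid and barrier list 3 of 23 genes, Fabp5 among them, were higher and 2 lower, with Sqle, an enzyme of cholesterol synthesis, at 69.6 CPM in IMQ and 20.6 CPM in Ctrl members and Elovl4, which lengthens fatty acids, at 43.6 and 7.06 CPM. Without the members at 0 Col17a1 UMIs Elovl4 was 1.60-fold and no longer counted as higher. The median of the lipid and barrier list was 0.37 relative to all measured genes, of which 7.44% were higher and 17.3% lower.

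Few junction genes were higher, in a share near that of all measured genes. The gap junction gene Gjb2, for connexin 26, stood at 344 CPM in IMQ members, in 43 of 104 cells, and 3.18 CPM in Ctrl members, in 11 of 276 cells, 108-fold (interval 68.1 to 184). Gjb6, for connexin 30, had 26.3 and 0.529 CPM, 49.8-fold (interval 16.3 to 247). The tight junction genes Cldn1 and Ocln were lower: Cldn1 stood at 33.1 CPM in IMQ and 165 CPM in Ctrl members, 0.2003 times the Ctrl level, and Ocln at 4.14 and 26.1 CPM, 0.158 times. Gjb5, for the gap junction protein connexin 31.1, was also lower at 6.02 and 21.7 CPM. In all 2 of 24 measured junction genes were higher and 6 lower, a median of -0.28 relative to all measured genes, and the desmosomal genes Dsp, Jup, Pkp1, Pkp3 and Dsc3 were neither.

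Among cytokines, the IL-20 family pair Il19 and Il24, neighbours on chromosome 1, was almost confined to IMQ members within this contrast. Il19 had 493 UMIs in IMQ and 1 in Ctrl members, 185 and 0.176 CPM, 1051-fold (interval 188 to 41605), and 309-fold without the highest cell of each library. Il24 stood at 95.2 CPM in IMQ and 0.529 CPM in Ctrl members, 179.8-fold (interval 60.8 to 878). A minority of the cells carried them: 32 of 104 IMQ cells had an Il19 UMI, 30 an Il24 UMI, 19 both and 43 either, against 1, 3, 0 and 4 of 276 Ctrl cells. After thinning, 25% of IMQ members and 0.777% of IMQ fibroblasts kept an Il19 UMI. Il20ra, a chain of the receptor of both cytokines, stood at 1.13 CPM in IMQ and 26.1 CPM in Ctrl members, 0.0432 times the Ctrl level (interval 0.00881 to 0.129), and Il20rb at 36.5 and 73.2 CPM, 0.498 times, just past the limit and neither under the size factor. Il22ra2, the soluble binding protein that blocks IL-22, had 1 UMI in IMQ and 171 UMIs in Ctrl members. Il6ra stood at 15.05 and 86.1 CPM. Across this list of cytokines, receptors and STAT3 targets, 2 of 18 measured genes were higher and 10 lower, 8 under the size factor. This compares with 7.44% and 17.3% of all measured genes, and the list's median was -0.81 relative to them. Stat3 and the feedback inhibitor Socs3 were neither.

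IL-1 family members were mixed, with 3 of 14 higher and 6 lower, against 7.44% and 17.3% of all measured genes. Their list's median was -0.56 relative to all measured genes. Il1f9, the older symbol of IL-36γ, stood at 55.7 CPM in IMQ and 4.06 CPM in Ctrl members, 13.7-fold (interval 8.81 to 22.3), in 47 of 104 and 16 of 276 cells. Il1f6, for IL-36α, had 66 UMIs in IMQ members, 52 of them in 1 cell, and 0 in Ctrl members. Il18 was higher on 25 IMQ and 13 Ctrl UMIs. The decoy receptor gene Il1r2 was lower at 8.65 CPM in IMQ and 83.8 CPM in Ctrl members, 0.103 times the Ctrl level (interval 0.0648 to 0.157). The same held for Tslp, an alarmin cytokine, at 3.39 and 28.6 CPM, and Il34, the keratinocyte cytokine that sustains Langerhans cells, at 1.505 and 23.3 CPM. Il1b was lower at 1.88 and 30.2 CPM, and without the highest cell of each library it had too few UMIs to be measured. Without the 5% of members with most UMIs, 2 of 12 list members were higher and 9 lower. The list median there was -1.58 relative to all measured genes. Its sign turned under 1 stricter rule: for members with no UMI of Lgr5, Lhx2, Sox9 or Krt79 it was 0.16. In that setting 3 of 13 genes passed the limit as higher and 6 as lower. The median was negative under every other alternative.

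Chemokines of neutrophils were higher in IMQ members. Cxcl1 stood at 209.9 CPM in IMQ and 68.5 CPM in Ctrl members, and the Ctrl value lay below the free RNA estimate of 72.1 CPM. Cxcl2 stood at 202 and 26.8 CPM, 7.55-fold (interval 6.29 to 9.10), with 98 of 152 Ctrl UMIs in 1 cell, and Cxcl3 at 65.8 CPM on 175 UMIs in IMQ and 0 in Ctrl members, at least 124-fold. Csf3, the growth factor of neutrophils, had 67 IMQ UMIs in 8 cells and 0 Ctrl UMIs. Ccl20, a chemokine of CCR6-positive T cells, was counted as lower at 14.3 and 46.1 CPM, but was 1.07-fold, neither higher nor lower, without the highest cell of each library. Ccl7 lay below its free RNA estimate in Ctrl members and was 1.08-fold without members that held over 0.5% of their UMIs from markers of another cell type. In fibroblasts, whose median depth was 15229 UMIs in IMQ and 9921 UMIs in Ctrl skin, 12.4% of thinned IMQ and 8.71% of thinned Ctrl cells had a Cxcl2 UMI, against 23.8% and 2.23% of members. In all 5 of 13 measured chemokine genes were higher and 4 lower, against 7.44% and 17.3% of all measured genes. The chemokine median was 0.65 relative to all measured genes, and 0.30 for members with at least 5000 UMIs. Without members that held over 0.5% of their UMIs from markers of another cell type it was 0.32. Not set relative to all measured genes, the median was 0.43, and 2.96 with free RNA subtracted.

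The windows before Il19 (chr1:130940116-130940365, minus strand) and Cxcl3 (chr5:90785851-90786100, plus strand) are shown for a cytokine and a chemokine with at most 1 UMI in all Ctrl members and a motif in the window.
Il19: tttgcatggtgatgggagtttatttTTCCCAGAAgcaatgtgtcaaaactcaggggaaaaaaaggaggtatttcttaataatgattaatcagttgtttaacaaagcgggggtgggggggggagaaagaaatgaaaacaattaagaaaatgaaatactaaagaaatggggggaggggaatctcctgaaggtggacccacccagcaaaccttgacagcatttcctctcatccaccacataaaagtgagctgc
Cxcl3: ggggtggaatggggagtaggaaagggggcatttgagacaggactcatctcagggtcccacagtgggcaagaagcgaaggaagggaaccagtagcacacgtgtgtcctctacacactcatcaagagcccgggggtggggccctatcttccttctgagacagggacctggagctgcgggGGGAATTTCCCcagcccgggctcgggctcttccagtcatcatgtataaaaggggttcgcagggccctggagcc
Il19 held the STAT letters from 225 to 217 bases before its start. Cxcl3 held the NF-kB letters on both strands in an overlap from 73 to 63 bases before its start.

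Known targets and regulators of IL-17 and NF-kB signalling did not move together. On their list 2 of 21 were higher and 5 lower, against 7.44% and 17.3% of all measured genes. The list's median was -0.18 relative to all measured genes. The inhibitor genes Tnfaip3 and Nfkbia stood at 56.8 and 2282 CPM in IMQ and 155 and 1824 CPM in Ctrl members, Tnfaip3 being lower (0.366 times the Ctrl level, interval 0.306 to 0.435) and Nfkbia neither. Il17ra, the receptor chain of IL-17A, was lower at 13.9 CPM in IMQ and 35.1 CPM in Ctrl members, and Relb and Map3k8 were lower as well. Nfkbiz, for IκBζ, a co-activator of IL-17 target genes, stood at 239 and 488 CPM, 0.490 times the Ctrl level. That value lay just past the limit, and Nfkbiz was neither under the size factor. Steap4 and Tnf were higher, at 15.8 and 11.7 CPM in IMQ and 5.12 and 4.41 CPM in Ctrl members.

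Of 6 measured ligand genes of the EGF receptor family 4 were higher, and none of the receptor genes was. Areg, for amphiregulin, stood at 369 CPM in IMQ and 35.5 CPM in Ctrl members, 10.4-fold (interval 8.92 to 12.2), with a UMI in 61 of 104 and 74 of 276 cells. After thinning, 35.7% and 8.92% of members kept one, against 0.466% and 0.786% of fibroblasts. Ereg, for epiregulin, had 37 IMQ and 3 Ctrl UMIs, 26.3-fold (interval 8.33 to 133), though the free RNA estimate for it in Ctrl members was 8.14 CPM. Nrg1, a ligand of ERBB3, stood at 101 and 43.8 CPM, 2.30-fold, and Tgfa at 39.9 and 18.2 CPM, 2.19-fold, but 1.57-fold without the highest cell of each library. Hbegf and Epgn were neither, at 231 and 126 CPM in IMQ and 243 and 78.9 CPM in Ctrl members. Erbb3 was lower at 32.4 CPM in IMQ and 82.8 CPM in Ctrl members, and Egfr, at 26.3 and 52.8 CPM, only just passed the limit and did not under the size factor (0.579-fold). Of 14 measured genes 5 were higher and 3 lower, against 7.44% and 17.3% of all measured genes. The median of the 14 stood at 0.26 relative to all measured genes. That value had no stable sign: it was -0.12 without the 5% of members with most UMIs, -0.11 with Krt5 and Krt14 at 2% or more, -0.05 with each cell weighted the same, where 2 were higher and 1 lower, and -0.03 without cycling cells.

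Genes of the basal state as a list were lower about as often as all measured genes, with Krt15 and Ccnd2 among the lower ones. Krt15, a keratin of resting basal cells and of follicle stem cells, stood at 260.0 CPM in IMQ (241 to 280.1) and 2881 CPM in Ctrl members (2837 to 2926), 0.0902 times the Ctrl level (interval 0.0835 to 0.0974). The cells overlapped in part: 49 of 104 IMQ and 6 of 276 Ctrl cells had no Krt15 UMI, and 8 of 104 IMQ cells reached the Ctrl median of 2191 CPM, while 32 of 104 reached 296 CPM, as 248 of 276 Ctrl cells did. With each cell weighted the same it was 0.194 times the Ctrl level. Ccnd2, for cyclin D2, stood at 75.6 CPM in IMQ and 344 CPM in Ctrl members, 0.220 times, and Igfbp3, a binder of insulin-like growth factors, at 147 and 329.6 CPM, 261 of its 391 IMQ UMIs lying in 1 cell. Trp63, Klf5, Tfap2a, Tfap2c and Sfn were neither. Of 24 measured genes of the list 0 were higher and 5 lower (3 under the size factor), against 17.3% lower of all measured genes, with a median of -0.37 relative to all measured genes.

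Attachment to the basement membrane differed part by part. Col17a1, the collagen that spans the hemidesmosome, stood at 369 CPM in IMQ (347 to 393) and 1085 CPM in Ctrl members (1058 to 1113), 0.340 times the Ctrl level (interval 0.318 to 0.364). The median cell had 298 CPM in IMQ and 1074 CPM in Ctrl skin, and after thinning 60.7% of IMQ and 92.9% of Ctrl cells kept a UMI, against 0.583% and 0.752% of fibroblasts. Dst, for the plakin BPAG1, stood at 213 and 519.8 CPM, 0.410 times, or 0.626 times and neither with each cell weighted the same, and Col7a1, the anchoring fibril collagen, at 31.2 and 70.0 CPM, 0.446 times, and neither under the size factor or with each cell weighted the same. The α6β4 integrin genes did not pass the limit: Itga6 was at 368 CPM in IMQ and 509 CPM in Ctrl members (0.723 times) and Itgb4 at 132 and 169 CPM (0.784 times). The laminin genes Lama3 and Lamb3 were neither, nor were Itgb1, Itga3 and Cd151. Npnt and Frem2, basement membrane proteins, were lower at 3.01 and 3.76 CPM in IMQ and 22.6 and 24.3 CPM in Ctrl members. Of 23 measured genes 1 (Lamb1, which was neither without its highest cell) was higher and 10 lower, 7 under the size factor. Among all measured genes the shares were 7.44% and 17.3%, and the median of the 23 was -0.39 relative to them. Nid1 and Col4a1, abundant in fibroblasts at 578 and 553 CPM in IMQ and 614 and 238 CPM in Ctrl skin, were counted as lower but changed side once the free RNA estimate was subtracted.

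Several signals that pattern the epidermis were lower. Wnt3 stood at 10.5 CPM in IMQ and 101 CPM in Ctrl members, 0.104 times the Ctrl level (interval 0.0685 to 0.152), and Wnt7b at 12.8 and 70.6 CPM, 0.181 times. Lgr6, a receptor of R-spondins that marks epidermal stem cells, had 6 IMQ and 277 Ctrl UMIs, 0.0462 times the Ctrl level in CPM. Bmp2 stood at 24.1 CPM in IMQ and 165 CPM in Ctrl members, and Notch1, whose signal drives keratinocytes to differentiate, at 60.2 and 175 CPM. Of 30 measured genes of the WNT, BMP, TGFβ and NOTCH pathways 1 (Bmp7) was higher and 11 lower. Among all measured genes the shares were 7.44% and 17.3%, and the median of the 30 was -0.58 relative to them.

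The 12 genes that were lowest in IMQ members by the bound of the ratio nearer to equality are described next. They were chosen for low ratios among genes with at least 50 CPM in the higher library. Few UMIs in IMQ members and good detection in Ctrl members thus follow from the choice. Fcgbp, a mucin-like protein that binds the constant part of IgG, had a UMI in 15 of 104 IMQ cells and 254 of 276 Ctrl cells, 9.78 CPM in IMQ and 577 CPM in Ctrl members, 0.0169 times the Ctrl level (interval 0.0111 to 0.0249). Dapl1 stood at 3.39 CPM in IMQ and 306 CPM in Ctrl members (0.0111 times), with 9 of 104 and 228 of 276 cells positive. The guidance molecule gene Sema3d had 2 IMQ and 414 Ctrl UMIs. Sox6, a transcription factor, stood at 3.01 and 79.8 CPM, Guca2a, for the peptide guanylin, at 1.505 and 54.2 CPM, and Cd55, which protects cells from complement, at 4.51 and 83.6 CPM. Calm5, Ccdc3, Oas1f, Ppp2r2c and Dsg1a were also among the 12. These 12 stayed lower under all 10 alternatives tabulated for single genes, which included leaving out shallow cells, cells at 0 Col17a1 UMIs and the highest cell. The alternatives draw on the same members from which the 12 were chosen.

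**Figure D3:**
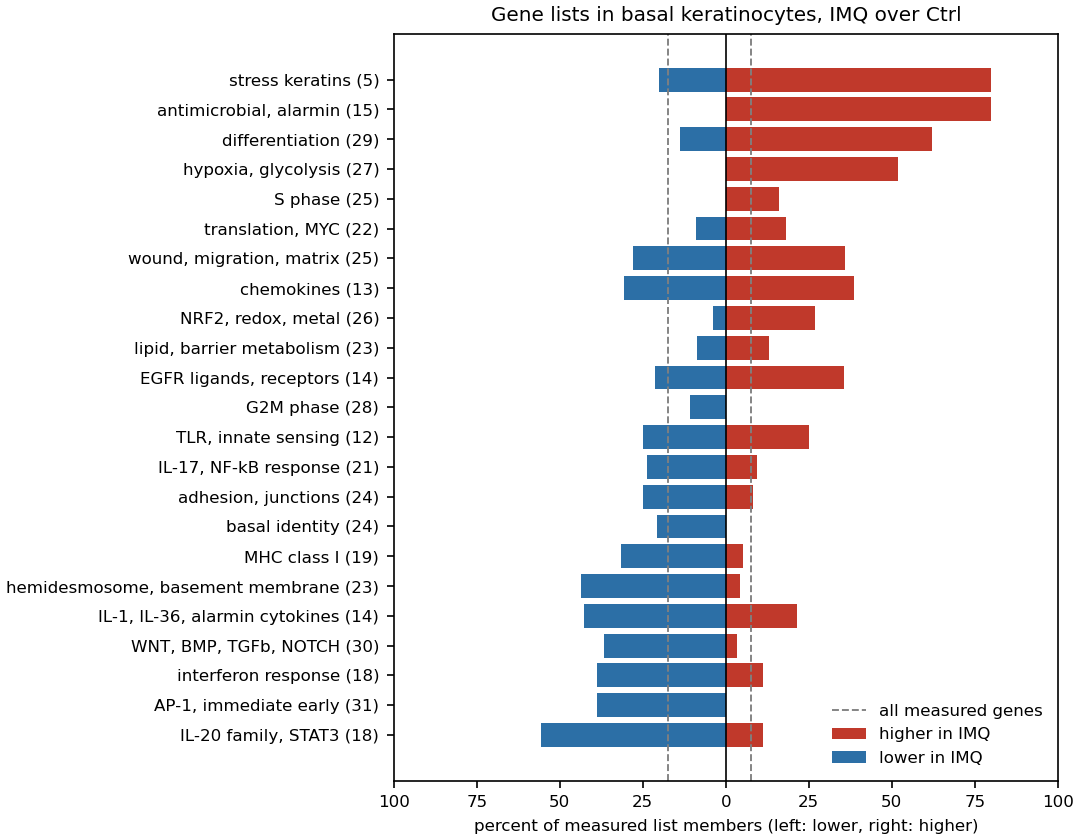
Bars give the percent of the measured members of each of 23 gene lists (number measured in brackets) that were higher (red, right) or lower (blue, left) in IMQ than in Ctrl basal keratinocytes, and dashed lines mark 7.44% and 17.3% for all measured genes. Stress keratins and antimicrobial genes are at the top with 4 of 5 and 12 of 15 higher, and the IL-20 family and STAT3 list is at the bottom with 10 of 18 lower.

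Genes of glycolysis and lactate transport were higher or similar. Of 27 measured genes of the hypoxia and glycolysis list 14 were higher and none lower, with a median of 1.23 relative to all measured genes. Ldha, which makes lactate, stood at 1207 CPM in IMQ and 382 CPM in Ctrl members, 3.16-fold (interval 2.99 to 3.34), and the glycolytic enzyme gene Aldoa at 1017 and 344 CPM, 2.96-fold. The lactate carrier genes Slc16a3 and Slc16a1 stood at 86.2 and 116 CPM in IMQ and 22.8 and 30.5 CPM in Ctrl members, 3.79-fold and 3.78-fold. Slc2a1, the glucose transporter, was 2.82-fold higher at 269 and 95.3 CPM. Hif1a, at 324 and 188 CPM, was neither, as were Hk1, Hk2 and Pdk1. Genes of ribosome production and of translation were also on the higher side: 4 of 22 were higher and 2 lower, 9 and 1 under the size factor, with a median of 0.85 relative to all measured genes. Npm1, a nucleolar chaperone, stood at 2809.7 and 1221 CPM, 2.30-fold, and Eif4ebp1 at 205 and 53.3 CPM, 3.84-fold, whereas Myc itself was lower at 60.2 and 124 CPM. Of 26 redox genes 7 were higher and 1 lower, among them the cystine carrier Slc7a11 with 76 IMQ and 3 Ctrl UMIs, Gclm at 117 and 28.6 CPM and Txn1 at 1077 and 391 CPM, while the metallothionein gene Mt4 was lower at 1.13 and 26.1 CPM. The redox median was 0.39 relative to all measured genes, of which 7.44% were higher and 17.3% lower.

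Cell cycle genes gave no single direction. Of 25 S phase genes 4 were higher and none lower, 9 under the size factor: Rrm2, a subunit of ribonucleotide reductase, stood at 105 CPM in IMQ and 38.1 CPM in Ctrl members, 2.76-fold (interval 2.31 to 3.32), the replication helicase genes Mcm5 and Mcm3 were 2.496-fold and 2.17-fold, and Ccne1 2.34-fold. Of 28 G2M genes none was higher and 3 (Cenpf, Nusap1, Kif23) were lower, Cenpf being neither with each cell weighted the same. The summed level of the 28 was 2212 CPM in IMQ and 2812 CPM in Ctrl members. Of all measured genes 7.44% were higher and 17.3% lower. Relative to all measured genes, the median was 0.91 for the S phase list and -0.07 for the G2M list. Not set relative to all measured genes, the G2M median was -0.28, but 0.26 with each cell weighted the same, so its sign depended on the weighting. Thinned to 3000 UMIs, 41 of 84 IMQ members (48.8%, 37.7% to 60.0%) and 78 of 269 Ctrl members (29.0%, 23.6% to 34.8%) held at least 4 G2M UMIs; 20 and 7 shallower cells were left out. The unthinned shares were 84.6% and 87.3%, and 2.33% and 0.410% of thinned fibroblasts met the same limit. Because the thinned share and the summed level ran in opposite directions, no order of the libraries in cycling cells is read from them.

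Of the 35 interferon-stimulated genes found, 18 had the 20 UMIs to be measured, of which 2 were higher and 7 lower, 4 under the size factor, and with free RNA subtracted 3 of 17 were lower. The median was -0.64 relative to all measured genes, -0.38 with free RNA subtracted and -0.11 with each cell weighted the same. Ifi27l2a stood at 13.5 CPM in IMQ and 66.0 CPM in Ctrl members, and Usp18, which damps interferon signalling, had 2 and 46 UMIs. The MHC class I list had 1 higher and 6 lower of 19, against 7.44% and 17.3% of all measured genes. Its median was -0.38 relative to all measured genes. B2m, the light chain, stood at 464 CPM in IMQ and 1189 CPM in Ctrl members (0.390 times). H2-Q7 stood at 51.9 and 189 CPM and the peptide transporter gene Tap1 at 24.8 and 68.3 CPM. Psmb10, a subunit of the immunoproteasome, was higher at 52.7 and 16.1 CPM. Tlr7, the receptor of imiquimod, had no UMI in members of either library. Of 12 measured genes of innate sensing 3 were higher, among them Casp1 at 16.6 CPM in IMQ and 3.88 CPM in Ctrl members, and 3 lower, among them Nod2 at 20.7 and 43.4 CPM. The median of these 12 was -0.08 relative to all measured genes.

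Immediate early genes, which tissue digestion is known to induce as well, were lower or similar: of 31 measured none was higher and 12 were lower, 10 under the size factor, with a median of -0.71 relative to all measured genes. Fosb stood at 169.7 CPM in IMQ and 831 CPM in Ctrl members, 0.204 times the Ctrl level (interval 0.185 to 0.225), and the nuclear receptor genes Nr4a1, Nr4a2 and Nr4a3 were 0.272, 0.218 and 0.224 times. The free RNA estimate for Fosb in Ctrl members was 137 CPM. Atf3 stood at 815 and 2569 CPM and Fos at 1499.7 and 3214 CPM. Genes of wound closure and matrix turnover were mixed, 9 of 25 higher and 7 lower, and 6 and 8 of 22 without the 5% of members with most UMIs. Their median was 0.72 and, without those members, 0.06 relative to all measured genes. Of all measured genes 7.44% were higher and 17.3% lower. With free RNA subtracted, 13 of 23 were higher and 2 lower. Mmp13 and Mmp9 were higher, but 208 of 249 and 126 of 127 IMQ UMIs lay in 1 cell each. Has3, which makes hyaluronan, stood at 29.7 CPM in IMQ members, in 26 of 104 cells, and 4.06 CPM in Ctrl members, 7.32-fold (interval 4.55 to 12.2).

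IMQ members differed among themselves along an axis of alarmin expression. The 81 IMQ members with at least 5000 UMIs were ranked by the percent of their UMIs from S100a8 and S100a9 and described in 3 ranges of 27 cells, which held up to 0.0708%, up to 1.02% and up to 11.4%. From the low to the high range, Krt6a was at 806, 2074 and 4025 CPM, Krt15 at 638, 269 and 11.2 CPM, and Il19 at 30.5, 64.6 and 362 CPM. Trp63 was at 164, 192 and 162 CPM and Col17a1 at 436, 467 and 262 CPM. So cells with much alarmin transcript also had more Krt6a and less Krt15, while Trp63 was similar in the 3 ranges. Fabp5 rose as well, at 963, 3122 and 8540 CPM, as did Krtdap at 480, 1742 and 2183 CPM. Gjb2 was at 57.7, 165 and 636 CPM, in 2, 16 and 24 of 27 cells. The ranking thus also moved with Krtdap, a gene of cells that start to differentiate, and Col17a1 was lowest in the high range. Postn was at 81.4, 72.7 and 55.3 CPM, and the median UMIs per cell were 20169, 30576 and 45225, so depth moved with the ranking and its part was not tested. Across the 84 IMQ members thinned to 3000 UMIs, Spearman's rho was 0.94 for S100a8 with S100a9, 0.65 for S100a8 with Krt6a, 0.62 for Krt6a with Krt16 and -0.48 for Krt6a with Krt15. These cells share 1 library, so rho describes that library. Even in the lowest range Krt6a and Krt17 stood at 806 and 1370.3 CPM, above the 32.3 and 134 CPM of the Ctrl members. These are summed levels that lean on few cells. In that range 1 cell of 20440 UMIs held 112 Krt6a and 458 Krt17 UMIs, and 21 and 23 of the 27 cells had a UMI.

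**Figure D4:**
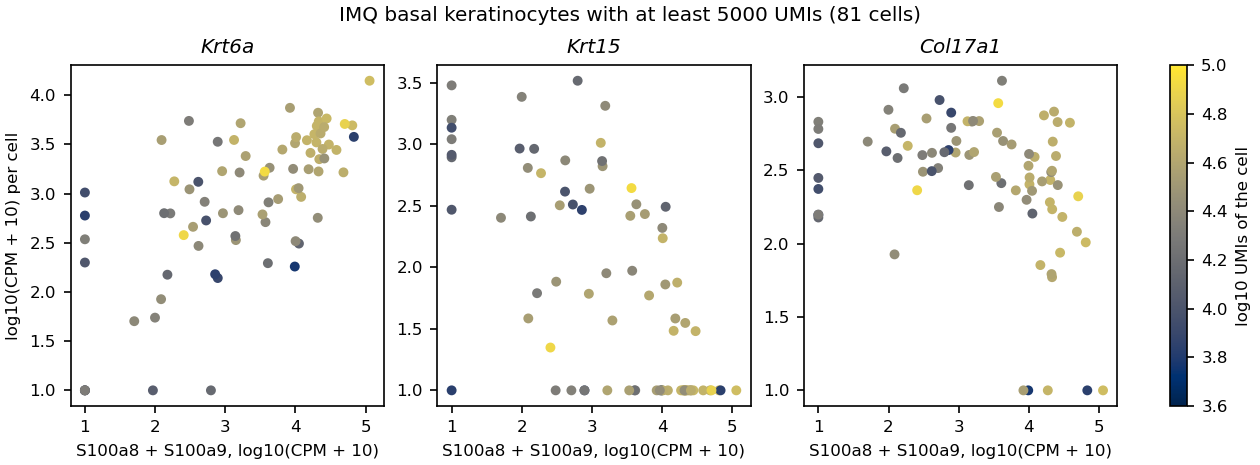
Each point is 1 of the 81 IMQ basal keratinocytes with at least 5000 UMIs, with log10(CPM + 10) of S100a8 and S100a9 together across, that of Krt6a, Krt15 or Col17a1 up the page, and the cell's log10 UMIs as colour. Krt6a lies higher and Krt15 lower toward the right, and the cells at the right are deeper.

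Levels in other gated cells place these values. Suprabasal keratinocytes (56 IMQ and 79 Ctrl cells, with at least 0.2% of UMIs from Krt1 and Krt10) had 9964 CPM of Krt16 in IMQ and 356 CPM in Ctrl skin, 5555 and 85.6 CPM of Krt6b, and 38398 and 1179 CPM of Fabp5. S100a8 was at 11346 CPM in IMQ suprabasal cells and 1638 CPM in IMQ follicle keratinocytes (803 IMQ and 151 Ctrl cells, with 2 or more follicle-gene UMIs), against 6782 CPM in IMQ members. Il19 and Il24 had another pattern: they were at 185 and 95.2 CPM in IMQ basal members, 38.3 and 28.3 CPM in IMQ follicle cells and 0.736 and 1.47 CPM in IMQ suprabasal cells. Krt15 in IMQ follicle cells was at 1669 CPM, against 2195 CPM in Ctrl follicle cells, whereas in basal members it was at 260.0 and 2881 CPM. Fcgbp was low in both kinds of IMQ cell, with 9.78 CPM in basal members and 21.7 CPM in follicle cells in IMQ skin and 577 and 538 CPM in Ctrl skin. Col17a1 was at 410.2 CPM in IMQ and 774 CPM in Ctrl follicle cells. These levels stand side by side, since with 1 library per group no difference between cell classes was tested.

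**Figure D5:**
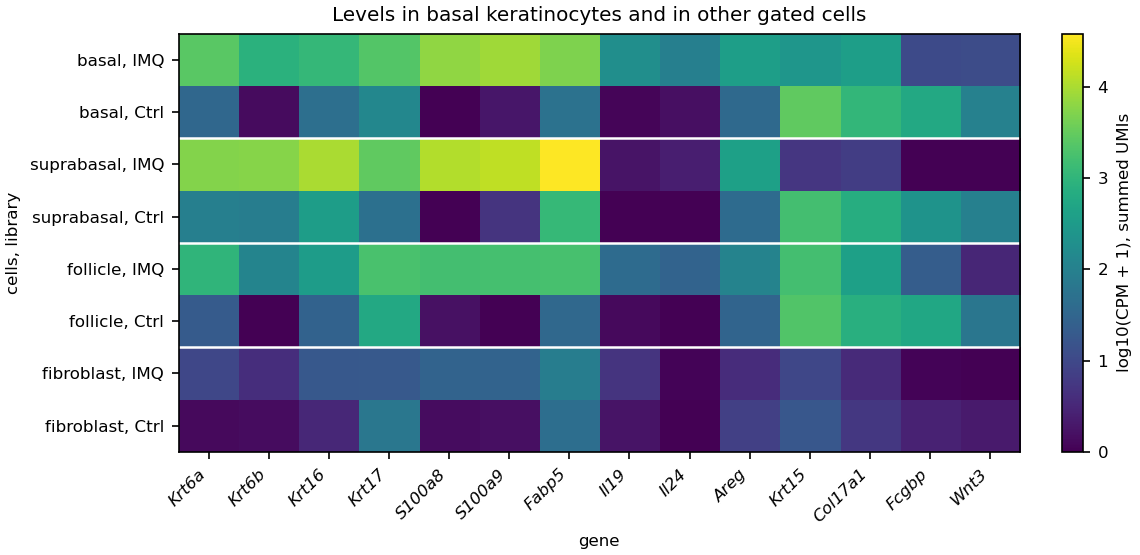
Colour gives log10(CPM + 1) of summed UMIs for 14 genes in basal members, suprabasal and follicle keratinocytes and fibroblasts, each with the IMQ row above the Ctrl row. Il19 and Il24 are highest in IMQ basal members among these 8 rows, while Krt6b, Krt16 and Fabp5 are highest in IMQ suprabasal cells.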

How the data were processed

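The deposited count matrices hold UMI counts per gene and barcode. Per the submitters' processing notes the reads were processed with Cell Ranger 3.0.2 on mm10, and Seurat 2.0 is also named; per the file headers the matrices were written by Cell Ranger 5.0.0. The gene annotation the authors used is not given in the sources used here, and 27645 of 27998 gene IDs had a position in GENCODE M21, from which gene positions were taken. Cells were kept with at least 200 genes and at most 10% mitochondrial UMIs and then gated on the stated genes, without clustering. No doublet caller was run, and the main values keep all members, 5 mixed cells in IMQ and 21 in Ctrl skin among them. Possible doublets were left out only in alternatives: the 5% of members with most UMIs, mixed cells, or the top cell of each gene.

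UMIs of members were summed per library and given as CPM with exact Poisson 95% intervals, shares have Clopper-Pearson intervals and ratios a conditional binomial interval (Python 3.11.15, scipy 1.17.1, numpy 2.4.6, pandas 2.3.3). These cover counting error only, and with 1 library per group no test was made. Free RNA was estimated from markers of other cell types as a share of UMIs times each gene's CPM over all barcodes of the library. The ratio and interval code was tested on simulated data. Named were the 12 highest and 12 lowest genes by the interval bound nearer to equality (at least 100 UMIs, 50 CPM in the higher library and 3 times the free RNA estimate), up to 4 members of each of 23 lists with the most extreme ratios, and the measured members of 5 lists, 157 genes in all. Other genes named were chosen after their values were seen. The members and lists were chosen with earlier results of these data known. Promoter sequences are RefSeq's, GRCm38.p6, and 111 of the 157 genes had one. Of the genes in the lists, 11 were not found under their symbol. Some genes of the lists are not reported here.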

Additional observations from a re-analysis of the deposited data

How the results depend on the processing

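No paired analysis was possible because each group has 1 library, and for the same reason no library could be left out. The share of members moved with the rule: it was 0.612% in IMQ and 1.398% in Ctrl skin with Krt5 and Krt14 at 2% or more of UMIs, and 0.647% and 1.92% with no UMI of Lgr5, Lhx2, Sox9 or Krt79. In IMQ skin it was 0.953% with at least 5000 UMIs and 0.977% without members at 0 Col17a1 UMIs, both chosen after seeing the data. The count of higher genes was 1182 under size factors, and with at least 100 UMIs 440 genes were higher and 1170 lower. The share with G2M UMIs was 66.7% and 39.4% with Krt5 and Krt14 at 2%, 69.0% and 61.7% at a limit of 2 UMIs, and 84.6% and 87.3% unthinned, so that it changed order only there. Named genes turned round in few cases. The log2 ratio of Ccl7 was 0.0086 with Krt5 and Krt14 at 2% and 0.11 without mixed cells, against -1.82. Ccl20 was at 0.034 with Krt5 and Krt14 at 2% and 0.10 without its top cell, against -1.69. Nid1 was at 1.23 without mixed cells and 3.83 with free RNA subtracted, against -1.33, and Col4a1 at 0.81 with free RNA subtracted, against -1.93. The causes were not tested. Mixed cells were also left out as a choice made after seeing the data. Depth limits low genes most: 3 counts are 1.13 CPM in IMQ and 0.529 CPM in Ctrl members.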

Other observations

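Several further members of the gene lists are given here by their values. Serpinb3b, a serine protease inhibitor of the squamous cell family, stood at 79.4 CPM in IMQ members, in 35 of 104 cells, and 0.353 CPM in Ctrl members. The innate sensing genes Aim2, which detects cytosolic DNA, and Gsdmc, a gasdermin, stood at 11.7 and 9.41 CPM in IMQ and 0.882 and 0.176 CPM in Ctrl members. Of the IL-1 family receptors Il1r1 was lower at 7.90 CPM in IMQ and 31.2 CPM in Ctrl members, and Il1rap, the chain it shares with the IL-36 receptor, at 10.5 and 22.9 CPM. Il1rl2, the IL-36 receptor itself, was neither at 23.3 and 41.5 CPM, as was the alarmin gene Il33 at 50.4 and 83.5 CPM. Plec, the other plakin of the hemidesmosome, stood at 167 and 333 CPM, 0.501 times the Ctrl level, just short of the limit of 2-fold. Nqo1, a quinone reductase, was higher at 28.2 CPM in IMQ and 8.12 CPM in Ctrl members, as was Srm, for spermidine synthase, at 163 and 64.6 CPM.

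S100a7a and Stfa2 passed the limit as higher on few cells: S100a7a had 29 of its 32 IMQ UMIs in 1 cell, and Stfa2 51 of 80. Chil1, a chitinase-like protein, had 31 UMIs in 10 IMQ cells and 0 UMIs in Ctrl members. Defb6 was higher at 26.3 CPM in IMQ and 11.998 CPM in Ctrl members, but the free RNA estimate in Ctrl members was 14.4 CPM.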
